A study of Arabidopsis thaliana with 12 samples.

Results

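Plastid fatty acid synthesis was followed here through the transcripts of 10 nuclear genes in leaves of Arabidopsis. The genes were picked by identifier among the 32954 genes of the deposited table. They are *BCCP1* (AT5G16390), *BCCP2* (AT5G15530) and *CAC2* (AT5G35360) for acetyl-CoA carboxylase, *KASI* (AT5G46290), *KASII* (AT1G74960) and *KASIII* (AT1G62640) for the condensing enzymes, *ACP4* (AT4G25050) for an acyl carrier protein, *FATA1* (AT3G25110) and *FATB* (AT1G08510) for acyl-ACP thioesterases, and *SSI2* (AT2G43710) for a stearoyl-ACP desaturase. All 10 were found and all 10 passed the filter on low values, which asked for at least 1 FPKM (fragments per kilobase of gene, scaled by library size) in at least 4 libraries.

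The libraries came from 3 genotypes in the Col-0 accession, with 4 biological replicates of each. The first was the *pGlcT2* overexpressor line #5 (OEX5), in which the cDNA of the plastid glucose transporter stood under the viral 35S promoter. It is a single line, and one passage of the study places the overexpressors in the *glct2* background whereas its methods state this only for a complementation line. The second was the knock-out *glct2* (SALK_052078), with a T-DNA in the first intron of *pGlcT2*, and the third the wild type (WT). All plants had grown for 24 days in short days and then for 10 to 12 days under continuous light of 100 to 120 µmol quanta m−2 s−1, so no genotype was measured without continuous light. Both lines were compared with the same WT libraries.

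In plants, fatty acids are made de novo in plastids. Acetyl-CoA carboxylase forms malonyl-CoA, the malonyl group is passed to an acyl carrier protein (ACP), and the chain grows on this carrier by cycles of condensation, reduction and dehydration. Thioesterases or plastid acyltransferases then take the acyl group off the carrier, and in leaves most of the products go into thylakoid and other membrane lipids.

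The 2 sequences given first are the bases upstream of the genes for which OEX5 was lower than both other genotypes, *ACP4* and *FATB*. They are RefSeq sequence of the TAIR10.1 assembly at the gene starts of the TAIR10 coordinates in the table. Of the 18147 tested genes found in both, 99.989% had identical start and end, and all 10 genes matched. Each run covers the 250 bases before the annotated start, 5′ to 3′ on the strand of the gene, for *ACP4* on the plus strand (chr4:12869756-12870005) and for *FATB* on the minus strand (chr1:2694548-2694797). Capitals would mark an AW box, the site described for the activator WRINKLED1 (WRI1), searched for on both strands as a C, any base, a T, any base, a G, 7 bases of any kind and then CG.
*ACP4*: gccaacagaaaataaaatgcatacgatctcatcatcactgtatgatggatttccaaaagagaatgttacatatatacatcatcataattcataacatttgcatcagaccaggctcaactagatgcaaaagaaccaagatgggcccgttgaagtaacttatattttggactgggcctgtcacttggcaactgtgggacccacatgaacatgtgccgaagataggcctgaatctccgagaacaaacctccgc
*FATB*: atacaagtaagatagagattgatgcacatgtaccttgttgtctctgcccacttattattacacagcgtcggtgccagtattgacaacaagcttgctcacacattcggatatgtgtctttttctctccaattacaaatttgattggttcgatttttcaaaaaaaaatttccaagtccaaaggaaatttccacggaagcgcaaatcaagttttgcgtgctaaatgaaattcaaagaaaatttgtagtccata

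In windows of 250 bases before to 50 bases after the start, 0 of the 10 genes held these letters, against 3258 of 27419 protein-coding genes (11.88%). Among 66 nuclear genes of related steps, 12 held a match. As examples, 4 of these 12 matches are given with the fixed letters of the motif in capitals, in the reading direction of the motif.
*ACP1*: CtTtGtacactcCG
*CAC3*: CgTgGgcacgtgCG
*ENO1*: CgTcGccgccgcCG
*PPT2*: CgTgGttttcttCG
With the first base of the gene as 0, they lay at 5 to 18 for *ACP1*, 2 to 15 for *CAC3*, −84 to −71 for *ENO1* and −205 to −192 for *PPT2*. A window without these letters says nothing about binding of the factor.

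The libraries were checked before the genes were compared. The recovered reads numbered 17448191 to 22477845 in OEX5, 18471068 to 22418179 in *glct2* and 19035449 to 24276381 in WT. The *pGlcT2* transcript (AT1G05030) was at 193, 180.3, 215 and 237 FPKM in OEX5, 2.65, 3.00, 3.89 and 2.83 FPKM in *glct2* and 9.39, 10.1, 8.26 and 9.48 FPKM in WT. All OEX5 libraries were above and all *glct2* libraries below the WT libraries, and in *glct2* the FPKM of the gene was 0.332 times the WT mean. A level per gene does not tell intact from partial transcript. By semi-quantitative RT-PCR with full-length primers, the paper reports that *pGlcT2* was almost completely absent from this line. The 5 mesophyll markers summed to 9126 to 14594 FPKM in OEX5, 11645 to 18992 FPKM in *glct2* and 15552 to 24498 FPKM in WT, and 4 of them were lower in OEX5 than in WT. All 5 are photosynthesis genes, so they are not a measure of mesophyll content alone. The paper reports lowered photosystem and *RbcS* transcripts in this overexpressor, *RbcS1A* and *RbcS3B* among them. The 4 root and the 4 seed markers summed to at most 0.0446 and 0.302 FPKM in any library, and the 3 flower markers to at most 2.79 FPKM. In OEX5 against WT, 3 of 6 guard cell markers and 3 of 5 epidermis markers were lower. There 1 epidermis, 1 of 3 trichome and 2 of 3 phloem companion cell markers were higher. Of the markers of dividing cells, 0 of 5 were called by limma, also at an unadjusted p under 0.05. Of all genes tested, 18.7% were higher and 19.9% lower in OEX5 than in WT, so single marker calls are not specific to a cell type. In such bulk samples, fewer cells of a type and less RNA per cell cannot be told apart, and the part of these markers in the results on the 10 genes was not tested.

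The first question was how the 10 genes stood to each other in leaves. FPKM is a level per gene length, so it can be compared between genes. In WT the highest levels were those of *ACP4* with 147 ± 48.4 FPKM and *SSI2* with 114 ± 5.12 FPKM (SD, n = 4 each here and for all means that follow). *FATB* followed with 65.3 ± 3.50, *CAC2* with 57.4 ± 6.86, *KASI* with 54.4 ± 8.91, *KASII* with 47.9 ± 6.45 and *BCCP1* with 41.3 ± 5.75 FPKM. Within this order each gene overlapped with the next over the 4 WT libraries, from *ACP4* and *SSI2* to *KASII* and *BCCP1*, except *SSI2* with *FATB*. *KASIII* (15.2 ± 1.39 FPKM), *FATA1* (6.32 ± 0.824 FPKM) and *BCCP2* (2.51 ± 0.495 FPKM) each lay apart from their neighbours. In *glct2* the order of the means was the same. In OEX5 *SSI2* led with 129 ± 15.7 FPKM, *ACP4* came second with 64.2 ± 26.7 FPKM, and *FATB* with 46.6 ± 4.48 FPKM stood behind *CAC2* and *KASI*.

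**Figure D1:**
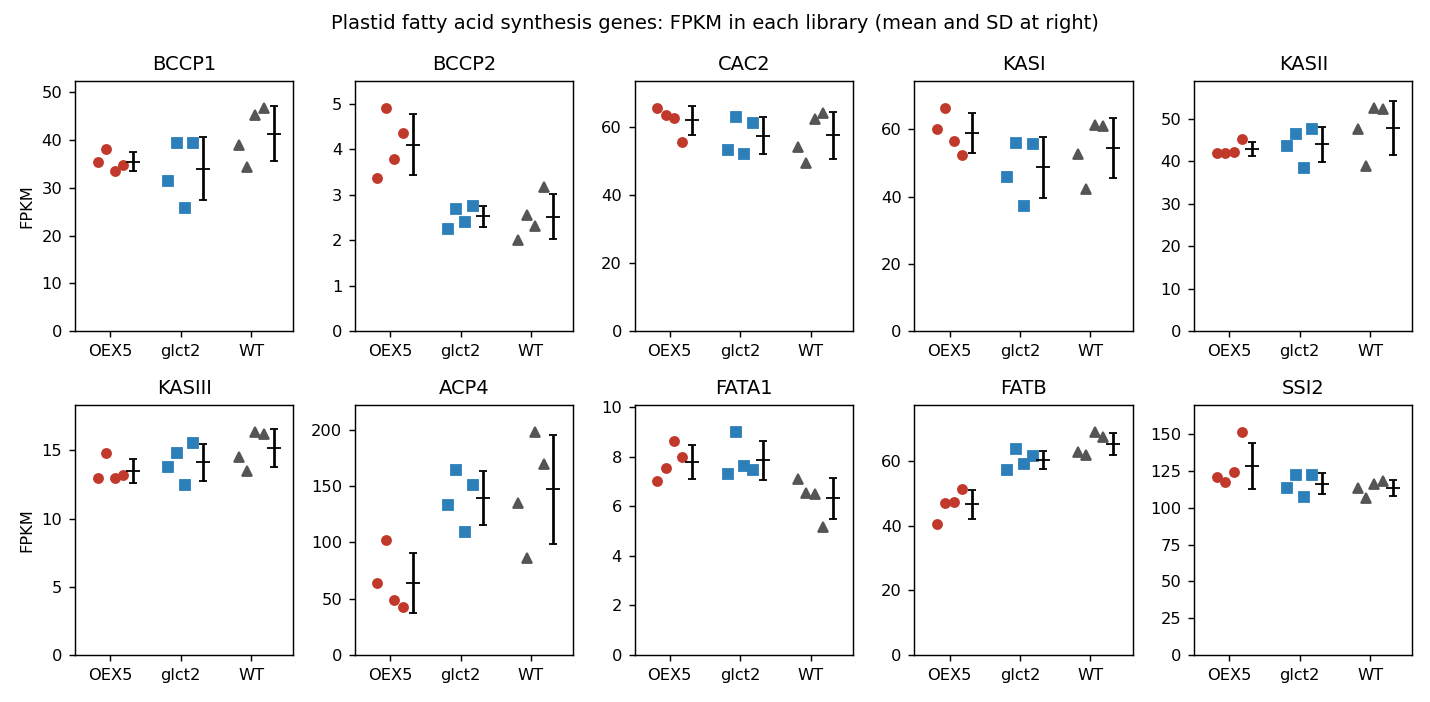
FPKM of the 10 genes in each library, by genotype; each point is 1 library and the bar at its right gives the mean and SD of the 4 libraries. *BCCP2* was above all WT libraries in all OEX5 libraries, *FATB* was below them, and *ACP4* spread from 42.4 to 102 FPKM in OEX5 and from 86.0 to 199 FPKM in WT.

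The overexpressor was then set against WT. The differences are given on the log2(FPKM + 1) scale, which understates the changes of genes with low levels, and p-values are those of limma, adjusted over all 18354 genes tested. In OEX5, 4 of the 10 genes were called at an adjusted p under 0.05, against 38.6% of all genes tested. *BCCP2* and *FATA1* were higher (2 of 10, against 18.7% of all genes) and *ACP4* and *FATB* were lower (2 of 10, against 19.9%). The median difference of the 10 genes was −0.02, beside 0.003 over all genes. Thus the share of called genes among the 10 was near that of the transcriptome, and the 4 calls did not go one way.

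*ACP4* encodes the ACP isoform known as the predominant one of Arabidopsis leaves. Its level was 63.8, 102, 48.5 and 42.4 FPKM in OEX5, against 135, 86.0, 199 and 170 FPKM in WT. Replicate 2 of OEX5 was above replicate 2 of WT, and otherwise all OEX5 libraries were below all WT libraries. The mean in OEX5 was 0.435 times that in WT, a difference of −1.20 (SE 0.284, adjusted p = 0.0056 by limma). When single libraries were left out the difference ran between −1.45 and −1.04, and it passed the test under each alternative, with adjusted p of at most 0.019. Of the 5 mesophyll markers, 4 were lower in OEX5 as well, and *RBCS1A* did not pass the test (−0.58, adjusted p = 0.13 by limma). In *glct2* against WT all 5 differences were negative, from −0.95 to −0.19, and 1 was called, *LHCB3* (−0.95, adjusted p = 0.048 by limma). *LHCB5* was lower in all *glct2* libraries than in any WT library but did not pass the test (−0.69, adjusted p = 0.080 by limma). There *ACP4* differed by −0.03, with a wide 95% interval of −0.65 to 0.59. The part of mesophyll content or of photosynthesis gene levels in the *ACP4* difference was not tested.

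*FATB*, the thioesterase that releases mainly saturated acyl chains, had 40.5, 47.1, 47.4 and 51.3 FPKM in OEX5, against 62.8, 61.8, 69.1 and 67.3 FPKM in WT. The groups did not overlap, and the difference was −0.48 (SE 0.073, adjusted p = 3.1e-04 by limma), or 0.714 times the WT mean. *FATA1*, the thioesterase with preference for oleoyl-ACP, went the other way with 7.03, 7.54, 8.65 and 7.98 FPKM in OEX5, against 7.09, 6.53, 6.49 and 5.15 FPKM in WT. One OEX5 library lay below the highest WT library, and the difference of 0.27 (SE 0.095) was close to the threshold (adjusted p = 0.041 by limma). It missed the threshold without filter, in a fit of the 2 genotypes alone and in 7 of 12 fits with a library left out, with adjusted p of up to 0.12. These libraries were replicates 2, 3 and 4 of OEX5, replicate 4 of *glct2* and replicates 2, 3 and 4 of WT. Its paralogue *FATA2* (AT4G13050) was at 12.4 ± 2.34 FPKM in OEX5 and 15.0 ± 1.59 FPKM in WT, and did not pass the test (−0.27, adjusted p = 0.094 by limma). The coding sequences of *FATA1* and *FATA2* share 81.8% of aligned bases and no exact run over 38 bases.

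*BCCP2* encodes a biotin carboxyl carrier of acetyl-CoA carboxylase that is known mainly from seeds, and *BCCP1* the carrier found in all tissues. *BCCP2* was at 3.38, 4.91, 3.78 and 4.35 FPKM in OEX5, against 2.02, 2.55, 2.31 and 3.18 FPKM in WT. All OEX5 libraries were above all WT libraries, at 1.63 times the WT mean and a difference of 0.54 (SE 0.117, adjusted p = 0.0034 by limma). The level rests on 57 to 154 reads per library. The annotated gene (chr5:5038563-5040840, plus strand) overlaps the first 192 bases with *RPS19B* (AT5G15520), a ribosomal protein gene on the minus strand, and at its other end AT5G15533, which is listed at 0 in all libraries. Whether strand was used in counting is not stated, so reads of the pair may not be separated there. *RPS19B* was higher than in WT both in OEX5 (0.53, adjusted p = 7.9e-04 by limma) and in *glct2* (0.57, adjusted p = 0.0070). *BCCP2* in *glct2* differed from WT by 0.01. The part of *RPS19B* reads in the *BCCP2* values was not tested. *BCCP1* was at 35.4, 38.1, 33.5 and 34.8 FPKM in OEX5, against 38.9, 34.3, 45.2 and 46.7 FPKM in WT, and did not pass the test (−0.21, 95% interval −0.49 to 0.08). *BCCP2* amounted to 10.3 ± 1.23% of the summed FPKM of both carriers in OEX5, 7.04 ± 1.01% in *glct2* and 5.77 ± 1.05% in WT, a share that was computed after the values had been seen.

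The other 5 genes did not pass the test in OEX5 against WT. *CAC2*, the biotin carboxylase subunit, had 65.5, 63.6, 62.6 and 55.6 FPKM in OEX5 and 54.0, 49.5, 62.2 and 64.0 FPKM in WT (0.11, 95% interval −0.10 to 0.31). Its last 64 bases overlap AT5G35370 on the other strand, which did not pass the test either (−0.05). *KASIII* starts the chain, *KASI* elongates it and *KASII* carries out the last condensation to the stearoyl chain. Their differences were −0.16 (95% interval −0.33 to 0.02) for *KASIII*, 0.12 (−0.19 to 0.43) for *KASI* and −0.15 (−0.36 to 0.06) for *KASII*. *KASII* was called lower (−0.24, adjusted p = 0.029 by limma) when replicate 2 of WT was left out. *SSI2*, the desaturase that makes oleoyl-ACP, had 121, 118, 125 and 152 FPKM in OEX5 and 113, 106, 116 and 118 FPKM in WT (0.17, 95% interval −0.01 to 0.36). It was called higher (0.21, adjusted p = 0.042) after rescaling without the 50 genes with the highest levels, which shifted the median of all genes to 0.03.

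**Figure D2:**
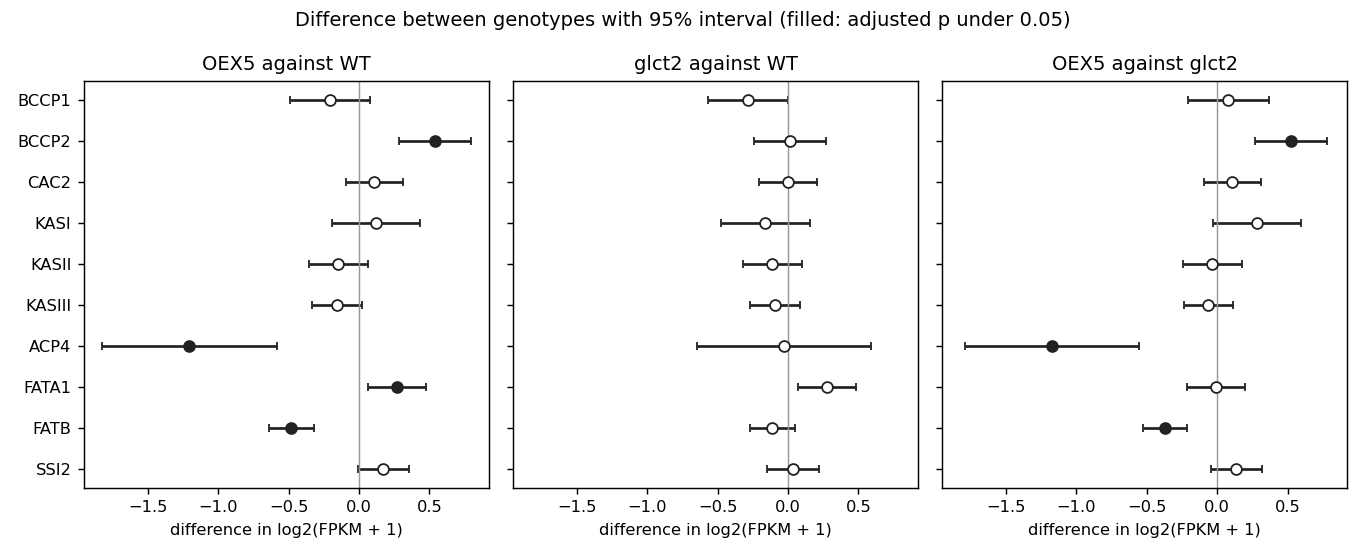
Difference in log2(FPKM + 1) between genotypes for the 10 genes, with the 95% interval from limma; filled points had an adjusted p under 0.05. In OEX5 against WT 4 genes were called, in *glct2* against WT 0 and in OEX5 against *glct2* 3.

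The knock-out line was compared with WT in the same way. In *glct2* against WT limma called 0 of the 10 genes, against 4.57% of all genes tested, and voom on the recovered reads called 0 as well. An unadjusted p under 0.05 was reached by 1 of the 10, against 22.4% of all genes. This was *FATA1*, with 7.29, 9.02, 7.64 and 7.46 FPKM in *glct2* and 7.09, 6.53, 6.49 and 5.15 FPKM in WT. All 4 *glct2* libraries were above all WT libraries (0.28, SE 0.095, adjusted p = 0.12 by limma). The other 9 differences ran from −0.28 for *BCCP1* (33.9 ± 6.60 FPKM in *glct2* and 41.3 ± 5.75 FPKM in WT, 95% interval −0.57 to 0.001) to 0.04 for *SSI2*. For *ACP4* the libraries held 133, 165, 109.6 and 151 FPKM in *glct2*, within the range of WT, and the interval of the difference was wide (−0.03, 95% interval −0.65 to 0.59). *FATB* was at 57.1, 63.6, 59.2 and 61.4 FPKM in *glct2*, with a difference of −0.11 (95% interval −0.27 to 0.05). Of all genes, 1.95% were higher and 2.62% lower in *glct2* than in WT, which is 357 and 481 genes, and after rescaling without the 50 highest genes these were 407 and 342.

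A direct comparison of the lines tests whether their differences from WT are unequal. In OEX5 against *glct2*, 3 of 10 genes were called, against 33.5% of all genes. *BCCP2* was higher in OEX5 (1 of 10, against 15.9% of all genes), with a difference of 0.53 (adjusted p = 0.0049 by limma). *ACP4* (−1.17, adjusted p = 0.0077) and *FATB* (−0.37, adjusted p = 0.0025) were lower (2 of 10, against 17.7%). For these 3 genes the libraries of OEX5 and *glct2* did not overlap, and *ACP4* had 42.4 to 102 FPKM in OEX5 and 109.6 to 165 FPKM in *glct2*. *FATA1* differed by −0.01 between the lines (95% interval −0.22 to 0.20), since it stood at 7.80 ± 0.687 FPKM in OEX5 and 7.85 ± 0.792 FPKM in *glct2*. *KASI* was at 58.8 ± 5.97 FPKM in OEX5 and 48.7 ± 8.96 FPKM in *glct2*, without passing the test (0.28, 95% interval −0.03 to 0.60).

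*ACP4* was next compared with the other plastid ACP isoforms. *ACP1* (AT3G05020) had 25.7, 24.7, 23.8 and 27.0 FPKM in OEX5, against 15.8, 12.8, 16.3 and 13.9 FPKM in WT. *ACP2* (AT1G54580) had 124, 104, 113 and 111 FPKM in OEX5, against 82.5, 79.0, 84.7 and 80.4 FPKM in WT. Both were higher in every OEX5 library than in any WT library, with differences of 0.75 (adjusted p = 2.9e-05 by limma) and 0.46 (adjusted p = 1.3e-04), while *ACP4* was lower. *ACP3* (AT1G54630) was at 75.5 ± 3.68 FPKM in OEX5 and 71.0 ± 5.25 FPKM in WT and did not pass the test (0.09). In *glct2* against WT, *ACP2* (0.27, adjusted p = 0.033 by limma) and *ACP3* (0.29, adjusted p = 0.028) were higher, and *ACP1* did not pass the test (0.27, adjusted p = 0.076). Both *glct2* calls were lost with several single libraries left out, with adjusted p of up to 0.10. *ACP5* (AT5G27200) had 3 reads over all libraries. The coding sequence of *ACP4* shares 64.1 to 68.7% of aligned bases with the other isoforms and no exact run over 14 bases. *ACP2* and *ACP3* share 94.2% of aligned bases and a run of 63 bases, so the split of reads between these is uncertain.

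In the sum of the 5 isoforms, *ACP4* took 21.8, 33.0, 18.8 and 16.8% in OEX5, 40.1, 44.1, 34.8 and 42.6% in *glct2* and 44.1, 35.4, 52.7 and 51.0% in WT. No OEX5 library reached the lowest share of the other genotypes. The sum itself was 278 ± 27.2 FPKM in OEX5, 343 ± 25.6 FPKM in *glct2* and 315 ± 56.0 FPKM in WT. These shares were computed after the values of the isoforms had been seen and are given as a description.

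**Figure D3:**
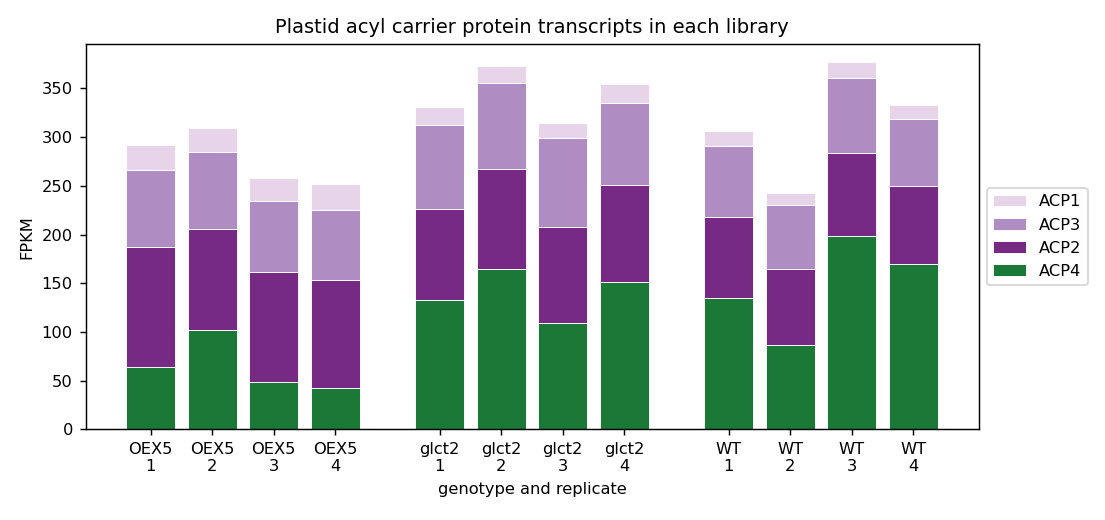
FPKM of the plastid acyl carrier protein genes *ACP1* to *ACP4* stacked for each library, by genotype and replicate. The *ACP4* segment was 42.4 to 102 FPKM in OEX5, 109.6 to 165 FPKM in *glct2* and 86.0 to 199 FPKM in WT, whereas *ACP2* was 104 to 124 FPKM in OEX5 and 79.0 to 84.7 FPKM in WT.

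*SSI2* was compared with its family in the same way. *SSI2* held 63.7 ± 2.61% of the summed FPKM of the 7 acyl-ACP desaturase genes in OEX5, 61.5 ± 2.37% in *glct2* and 57.8 ± 3.03% in WT. *S-ACP-DES6* (AT1G43800) was lower, with 8.68, 15.0, 11.6 and 12.4 FPKM in OEX5 and 24.2, 30.6, 39.5 and 22.0 FPKM in WT (−1.21, adjusted p = 4.3e-04 by limma). *S-ACP-DES5* (AT3G02630) was higher, with 52.9 ± 2.68 FPKM in OEX5 and 45.8 ± 2.53 FPKM in WT (0.21, adjusted p = 0.014). AT3G02620, annotated in this family, was higher at a low level of 1.51 ± 0.449 FPKM in OEX5 and 0.604 ± 0.191 FPKM in WT (0.64, adjusted p = 0.0047). It shares 94.3% of aligned coding bases with AT3G02610, which did not pass the test (−0.15). *S-ACP-DES1* (AT5G16240) did not pass the test (−0.15), and *S-ACP-DES3* (AT5G16230) stayed below the filter with at most 0.472 FPKM in any library.

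The steps around the 10 genes were then read from 67 further genes in 8 lists, of which 63 passed the filter. In OEX5 against WT 14 were higher and 11 lower, against 18.7% and 19.9% of all genes, with a median of 0.04. In *glct2* against WT 2 were higher and 0 lower, against 1.95% and 2.62% of all genes, and 16 had an unadjusted p under 0.05, against 22.4%. In OEX5 against *glct2* 15 were higher and 9 lower, against 15.9% and 17.7% of all genes. *CAC3* (AT2G38040), the α-carboxyltransferase subunit that works with *BCCP1*, *BCCP2* and *CAC2*, was lower with 54.9 to 56.3 FPKM in OEX5 and 65.9 to 84.5 FPKM in WT (−0.43, adjusted p = 7.6e-04 by limma). The plastid-encoded subunit gene *accD* (ATCG00500) was at most 0.454 FPKM in any library and was not tested. The study prepared mRNA, and how well these libraries captured plastid-encoded transcripts was not checked. The level of *accD* in leaves can therefore not be read from this value. *HCS1* (AT2G25710), which attaches biotin to such carriers, was higher (0.21, adjusted p = 0.039). Among 5 other genes of the elongation cycle, 2 were higher and 0 lower, against 18.7% and 19.9% of all genes. The higher ones were *MOD1* (AT2G05990), the enoyl-ACP reductase (0.34, adjusted p = 0.025), and AT5G10160, annotated as a dehydratase (0.45, adjusted p = 0.0063). Of the remaining carboxylase list, AT3G56130 was higher (0.18, adjusted p = 0.029) and AT4G13500 lower (−0.42, adjusted p = 0.045). The calls of *HCS1*, *MOD1*, AT3G56130 and AT4G13500 were each lost when some single libraries were left out.

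Upstream of the carboxylase, 4 of 14 genes for acetyl-CoA supply were higher and 1 was lower in OEX5 than in WT, against 18.7% and 19.9% of all genes, and the others were not called. The lower one was *PPT2* (AT3G01550), a phosphoenolpyruvate translocator of the plastid envelope, with 4.16, 9.72, 4.38 and 5.41 FPKM in OEX5 and 21.9, 14.6, 28.6 and 28.6 FPKM in WT (−1.84, adjusted p = 1.6e-04 by limma). *ENO1* (AT1G74030), the plastid enolase, was higher (0.49, adjusted p = 0.0021), as were *LPD1* (AT3G16950), a subunit of plastid pyruvate dehydrogenase (0.40, adjusted p = 3.5e-04), and *PKP-BETA1* (AT5G52920), a subunit of plastid pyruvate kinase (0.32, adjusted p = 6.9e-04). The regulator *WRI1* (AT3G54320) was at 3.01 ± 0.150 FPKM in OEX5 and 2.58 ± 0.357 FPKM in WT and did not pass the test (0.17). Its relative *WRI4* (AT1G79700) was lower, with 2.26 ± 0.357 FPKM in OEX5 and 5.78 ± 1.49 FPKM in WT (−1.04, adjusted p = 1.3e-04 by limma). The annotated *WRI4* and *ENO1* overlap genes on the other strand by up to 355 and 333 bases. The highest of these genes had means of 36.3 and 18.4 FPKM, above *WRI4* and *ENO1*. As for *BCCP2*, reads may not be separated there, and the part of such reads in both calls was not tested.

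Downstream, *FAX1* (AT3G57280), which exports fatty acids across the inner envelope, had 19.8 to 23.3 FPKM in OEX5 and 30.9 to 36.3 FPKM in WT (−0.67, adjusted p = 4.8e-05 by limma). Of 14 genes for plastid glycerolipids 1 was higher and 4 were lower in OEX5, against 18.7% and 19.9% of all genes, and the others were not called. The lower ones were *ATS1* (AT1G32200), the plastid glycerol-3-phosphate acyltransferase (−0.68), *MGD1* (AT4G31780), a galactolipid synthase (−0.32), and the desaturases *FAD5* (AT3G15850, −0.80) and *FAD8* (AT5G05580, −0.84). Adjusted p was 0.0037, 0.0019, 0.014 and 0.028 in this order, and the call of *FAD8* was lost when single libraries were left out. Outside plastids 1 of 8 genes was higher and 1 lower, against 18.7% and 19.9% of all genes. The lower one was the endoplasmic desaturase *FAD3* (AT2G29980) with 63.2 ± 8.31 FPKM in OEX5 and 114 ± 9.59 FPKM in WT (−0.84, adjusted p = 3.7e-05). The mitochondrial acyl carrier protein gene *MTACP3* (AT5G47630) was higher (0.33, adjusted p = 0.045), also a call that single libraries decided.

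**Figure D4:**
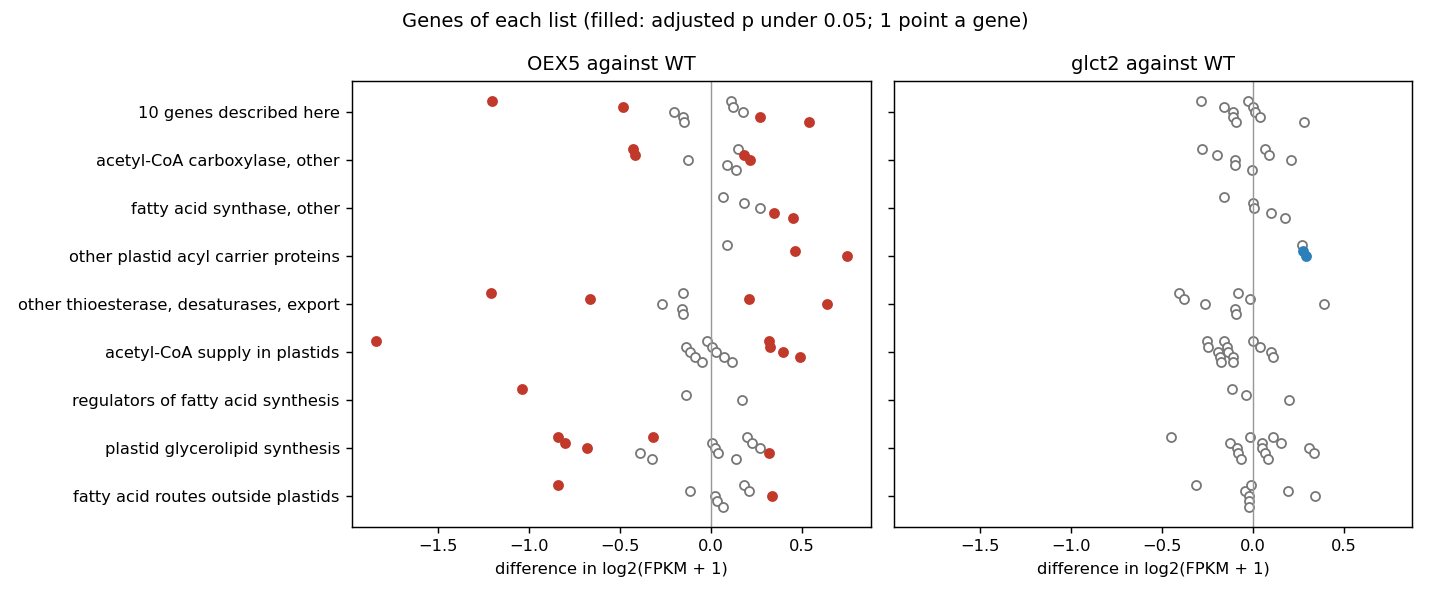
Difference in log2(FPKM + 1) of each tested gene from WT in OEX5 (left) and in *glct2* (right), by list; filled points had an adjusted p under 0.05. In OEX5 14 of 63 genes outside the 10 were higher and 11 lower, and in *glct2* 2 were higher.

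Within *glct2* and within WT the 10 genes tended to deviate in the same libraries. OEX5 showed this less. There replicate 1 was most often the lowest, for 4 of 10 genes (18.9% of all genes). Replicate 2 of OEX5 was most often the highest, for 5 of 10 (31.3%). Replicate 2 of WT was the lowest WT library for 8 of 10 genes, against 32.2% of all genes tested, and replicate 3 of *glct2* was the lowest for 7 of 10, also against 32.2%. Replicate 2 of *glct2* was the highest for 7 of 10 (22.3% of all genes). For *ACP4* the deviations from the genotype mean were −0.70 in replicate 2 of WT, 0.49 in replicate 3 of WT and 0.74 in replicate 2 of OEX5. *FATA1* and *BCCP2* were exceptions in replicate 2 of WT, with 0.05 and 0.03, and *FATA1* was at −0.24 in replicate 4 of WT. The mean deviation of the mesophyll markers was −0.41 in replicate 2 of WT, −0.47 in replicate 3 of *glct2* and 0.43 in replicate 2 of OEX5. These libraries were not singled out by the labels. The part of mesophyll content or of photosynthesis gene levels in the spread was not tested.

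**Figure D5:**
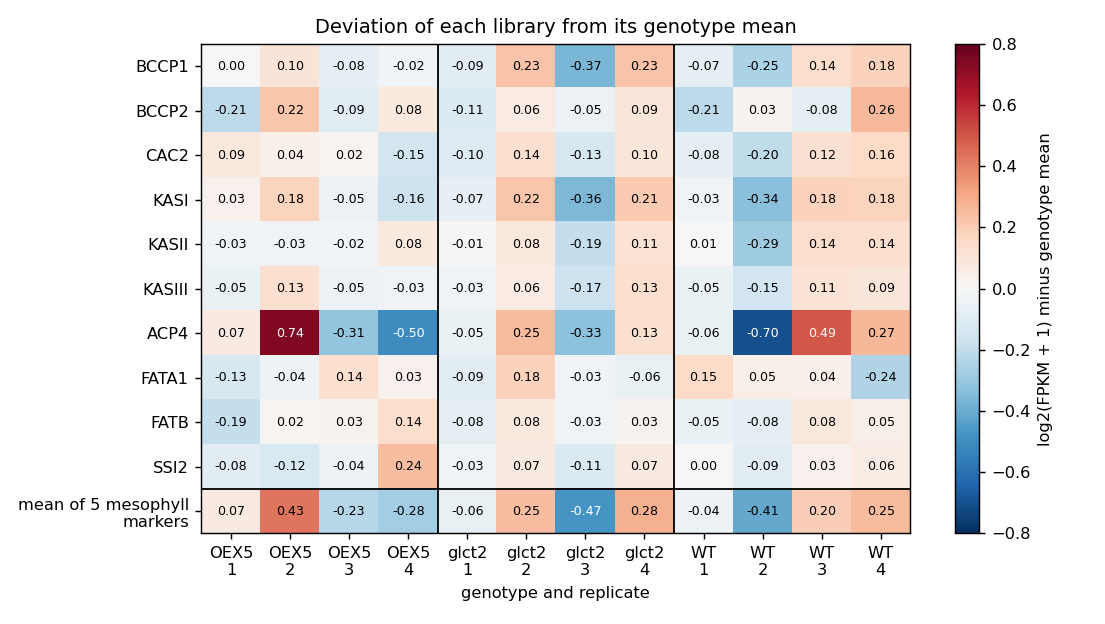
Deviation of log2(FPKM + 1) from the genotype mean for the 10 genes and for the mean of 5 mesophyll markers, in each library. Replicate 2 of WT and replicate 3 of *glct2* were low for most of the 10 genes and for the markers, which deviated by −0.41 and −0.47.

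Across the 12 libraries, the tested genes whose scaled profile was closest to the mean profile of the 10 were *LPD2* (AT4G16155), the gene of another dihydrolipoyl dehydrogenase of plastids, then AT4G28780, *OASB* (AT2G43750), *GLN2* (AT5G35630) and *ADT1* (AT1G11790). Their root mean square distances in z-scores were 0.515, 0.519, 0.523, 0.523 and 0.525, beside a median of 1.09 over all other genes. *LPD2* was at 29.3 ± 3.75 FPKM in OEX5, 27.4 ± 5.87 FPKM in *glct2* and 32.9 ± 7.41 FPKM in WT.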

How the data were processed

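RNA of Arabidopsis leaves was sequenced as directional libraries by a service provider, with 4 biological replicates of each of 3 genotypes. In the submitters' processing notes the TAIR10 build, StringTie 1.3.3, HISAT2 2.0.5 and fastp are listed without roles. The authors deposited FPKM values per gene, computed from reads, gene length and a library size. The counting program and its strand setting are not given in the sources used here. The deposited columns of genotype means were not used. FPKM times gene length was a whole multiple of 1 step per library for 100% of the values (tolerance 0.01), and these multiples were taken as reads. The library size behind the FPKM differed by genotype. It was 1.02 to 1.06 times these reads in OEX5, 1.01 to 1.06 times in *glct2* and 0.927 to 0.987 times in WT. The 50 highest genes took 12.1 to 12.5% of reads in OEX5, 12.6 to 15.1% in *glct2* and 15.4 to 18.2% in WT.

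Groups follow the labels. The labels give replicate numbers but no shared batch. Residuals of same-numbered libraries correlated at 0.119 to 0.184 in the 4 pairs of OEX5 and *glct2*. The pairs with WT did not all correlate in this way. The main fit held no replicate block, so its p-values for OEX5 against *glct2* are unpaired. Pairing by number entered only in alternatives. The 18354 genes that reached 1 FPKM in 4 or more libraries were fitted as log2(FPKM + 1) in 1 model of the 3 genotypes with limma 3.58.1 in R 4.3.3 (eBayes with trend, 9 residual degrees of freedom). Adjustment was after Benjamini and Hochberg over all tested genes, with a threshold of 0.05. The procedure was also run on simulated reads with independent libraries and fewer changed genes than were called here. That run does not give the error rates for these data. The 10 genes and the lists were chosen with earlier results of these data known. All 10 genes are named. Of each list, the up to 4 called genes with the smallest p in OEX5 and up to 2 in *glct2* are named, besides isoforms of the 10 genes, *pGlcT2* and the 5 genes of most similar profile. *RPS19B*, AT5G15533, AT5G35370, *accD*, *WRI1*, *LHCB3* and *RBCS1A* were named after their values were seen. As alternatives, the pseudocount was set to 0.1 or 5 and the filter to 5 FPKM or none, besides 2 rescalings, voom on reads, fits of 2 genotypes, a replicate block and leaving out each library. Sequences were read from RefSeq TAIR10.1 with Python 3.11.15, coding sequences were aligned with Biopython 1.88 and figures were drawn with matplotlib 3.10.9.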

Additional observations from a re-analysis of the deposited data

Results flagged for a closer look

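Among 40 named genes in 3 genotypes, 9 of 120 sets of 4 libraries had 1 library far from the other 3, where chance gives about 1 in 20. This rate does not hold for the *ACP5* sets among the 9, in which 1 read against 0 elsewhere always stands out. The 9 sets are therefore not shown to exceed chance. *KASII* stood out at 45.4 FPKM in replicate 4 of OEX5, against 42.0 to 42.2 FPKM in its other replicates. *KASIII* was at 14.8 FPKM in replicate 2 of OEX5, against 13.0 to 13.2 FPKM. AT3G56130 was at 27.9 FPKM in replicate 2 of OEX5 (26.2 to 26.5 FPKM in the others) and *MTACP3* at 17.4 FPKM in replicate 1 of OEX5 (13.7 to 13.9 FPKM). Replicate 2 of WT was low for AT4G13500 with 57.2 FPKM (82.0 to 84.9 FPKM in the others) and for *FAD3* with 99.2 FPKM (117 to 120 FPKM in the others). *ACP5* had a single read in replicate 1 of OEX5 (0.0661 FPKM), replicate 4 of *glct2* (0.0689 FPKM) and replicate 2 of WT (0.0681 FPKM), and 0 elsewhere.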

How the results depend on the processing

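Over 21 alternatives, and 22 for OEX5 against *glct2*, limma called 3 to 5 of the 10 genes in OEX5 against WT, 0 in *glct2* against WT and 2 or 3 in OEX5 against *glct2*. *BCCP2* is below a filter at 5 FPKM and was not tested there. The count of all genes called in *glct2* against WT was 838, and 493 with the replicate block, and it ran from 201 to 1138 with 1 library left out. In OEX5 against *glct2* the block left 3 of the 10 genes and 5656 of all genes called, against 6151 without it. A paired fit of these lines alone, chosen after seeing the data, left 3 and 5265, and neither changed a call on the 10 genes. For the libraries of WT, the residuals did not show a pairing by number with the others throughout. They cannot exclude a batch shared with WT, since some pairs did match. Same-numbered residuals correlated at −0.329 to 0.149 for OEX5 and WT and −0.290 to 0.328 for *glct2* and WT, and 1 and 2 of 4 pairs had the best correlation at their own number. With the block 3 of the 10 genes were called in OEX5 against WT, and the calls of *FATA1* (adjusted p = 0.059), AT4G13500 (0.078), *MOD1* (0.058) and, in *glct2*, *ACP2* (0.068) and *ACP3* (0.053) were lost.

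Differences near 0 changed sign. *ACP4* in *glct2* against WT was 0.00063 after rescaling without the 50 highest genes, and ran from −0.26 to 0.14 with 1 library left out. For *glct2* against WT the ranges were −0.0585 to 0.0986 for *BCCP2* and −0.0669 to 0.0552 for *CAC2*. For OEX5 against *glct2* they were −0.0422 to 0.155 for *BCCP1*, −0.0983 to 0.00337 for *KASII* and −0.0531 to 0.0532 for *FATA1*. Of 1161 values under the alternatives, for 55 comparisons of a gene, 1073 kept direction and side of the threshold, 69 fell below it, 2 passed it and 17 changed sign. Calls lost in OEX5 against WT without single libraries were those of AT3G56130 (replicates 1 and 2 of OEX5, 1 and 4 of WT), *HCS1* (each of OEX5, 1, 3 and 4 of WT), AT4G13500 (3 and 4 of OEX5, 1, 2 and 4 of *glct2*, 1, 3 and 4 of WT), *MOD1* (1 and 2 of OEX5, 1 and 2 of WT), *FAD8* (3 and 4 of OEX5, 1, 3 and 4 of WT) and *MTACP3* (1, 3 and 4 of OEX5, 1 and 2 of *glct2*, 2 and 4 of WT). In *glct2* against WT they were *ACP2* (each of *glct2*, 1, 2 and 4 of WT) and *ACP3* (1, 2 and 3 of *glct2*, 1, 2 and 4 of WT). Among the 10 genes, depth limits *BCCP2* most, with 57 to 154 reads per library. With 4 libraries a genotype, a difference that missed the threshold is not shown to be absent. The cause of these changes was not tested.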
